A study of Mus musculus with 6 samples.

Results

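The type I interferon response genes described here are 31 mouse genes named by their symbols, from the signal transducer Stat2 to antiviral effectors such as Isg15, Rsad2 and Bst2. Of these, 29 had a row in the 6 count matrices, among 32285 genes in all. Mx1 and Mx2 are not analysed here. The samples were 3 pancreatic tumours of mice given IPI-926, which blocks Smoothened and thereby Hedgehog signalling, by oral gavage at 40 mg/kg daily for 2 days, and 3 tumours of mice given its vehicle, hydroxypropyl-beta-cyclodextrin, in the same way. All 6 tumours were taken 2 hours after the last dose, and each was made into 1 single-cell library (10x Genomics Single Cell 3' v3). Every mouse carried KrasLSL.G12D/+, P53LSL.R172H/+ and Pdx1-Cre, the KPC model of pancreatic ductal adenocarcinoma, in which the Pdx1 promoter drives recombination in the pancreatic epithelium and the other cells of the tumour are not recombined by design. The labels give no age, strain background or sex.

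Type I interferons are secreted by cells that sense foreign or misplaced nucleic acid, and they act through the receptor pair Ifnar1 and Ifnar2 on nearly every nucleated cell. The kinases Jak1 and Tyk2 then phosphorylate Stat2, which joins Irf9 in a complex that binds a DNA element with repeated GAAA half-sites in the promoters of the response genes. Interferon gamma acts through a separate receptor and induces part of the same genes, so the level of a response gene does not name the interferon. In tumours these genes are known from macrophages, dendritic cells and tumour cells, and from the response to DNA damage and to therapy.

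The promoter windows of 5 members are printed because many members, though not all, carry this element. RefSeq windows on GRCm38.p6, from 250 bases before to 50 bases after a gene's start, were found for 22 of the 29 members, and are printed 5′ to 3′ on the gene's strand with each match to GAAANNGAAA, or to its reverse complement TTTCNNTTTC, in capitals. The windows are chr4:156200769-156201068 on the minus strand for Isg15, chr8:71537423-71537722 on the minus strand for Bst2, chr19:34583279-34583578 on the plus strand for Ifit3, chr12:26456403-26456702 on the minus strand for Rsad2 and chr7:141266375-141266674 on the minus strand for Irf7.
Isg15: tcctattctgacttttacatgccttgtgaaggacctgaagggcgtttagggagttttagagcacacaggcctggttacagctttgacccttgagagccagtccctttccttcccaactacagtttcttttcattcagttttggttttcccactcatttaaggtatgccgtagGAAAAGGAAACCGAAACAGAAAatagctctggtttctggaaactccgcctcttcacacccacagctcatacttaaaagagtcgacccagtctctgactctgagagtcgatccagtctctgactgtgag
Bst2: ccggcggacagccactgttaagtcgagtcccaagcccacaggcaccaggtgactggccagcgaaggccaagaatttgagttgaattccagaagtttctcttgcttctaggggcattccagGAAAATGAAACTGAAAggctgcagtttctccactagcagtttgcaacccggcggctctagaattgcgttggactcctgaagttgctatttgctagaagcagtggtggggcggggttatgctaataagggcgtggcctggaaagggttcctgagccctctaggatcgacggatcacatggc
Ifit3: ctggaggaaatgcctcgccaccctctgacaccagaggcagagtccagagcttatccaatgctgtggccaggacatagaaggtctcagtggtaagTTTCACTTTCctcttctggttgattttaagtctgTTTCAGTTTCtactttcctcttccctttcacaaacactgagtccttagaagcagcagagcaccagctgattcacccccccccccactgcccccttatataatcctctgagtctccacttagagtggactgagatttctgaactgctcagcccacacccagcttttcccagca
Rsad2: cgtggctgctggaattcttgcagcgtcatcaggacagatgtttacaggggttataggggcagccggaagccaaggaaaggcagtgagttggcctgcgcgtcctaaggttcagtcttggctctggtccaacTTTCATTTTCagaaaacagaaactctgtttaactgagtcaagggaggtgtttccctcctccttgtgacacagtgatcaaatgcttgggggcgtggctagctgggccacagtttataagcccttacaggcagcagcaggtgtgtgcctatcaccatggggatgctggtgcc
Irf7: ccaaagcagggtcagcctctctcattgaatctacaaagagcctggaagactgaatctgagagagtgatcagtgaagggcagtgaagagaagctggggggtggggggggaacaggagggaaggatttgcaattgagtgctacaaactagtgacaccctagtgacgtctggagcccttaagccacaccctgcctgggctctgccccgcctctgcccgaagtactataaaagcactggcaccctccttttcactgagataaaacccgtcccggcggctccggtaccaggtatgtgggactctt

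Isg15 held 3 overlapping matches, which began 78, 72 and 66 bases before the start, and Bst2 held 2 overlapping ones at 130 and 124 bases. Ifit3 held 2 separate matches at 156 and 122 bases before the start, and Rsad2 held 1 at 120 bases. The Irf7 window held none of these letters. Over all members, 13 of 26 windows (50%) held the motif on either strand, which is 12 of 22 genes (54.5%), against 1131 of 32851 windows (3.44%) and 1079 of 27025 genes (3.99%) in the whole RefSeq table. A match describes the letters of the window and is not evidence that a factor binds there.

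The 6 libraries held 62905 cell barcodes with 718531446 UMIs (unique molecular identifiers, which count RNA molecules), between 100810942 and 174929328 per library, and 49797 cells were kept after filtering. The median UMIs per kept cell were 2694.5 to 4072 in IPI-926 libraries and 4376.5 to 7830.5 in vehicle libraries, and no pair of libraries shared more than 59 barcodes. Cells were clustered over all libraries without the members and the listed pathway genes among the clustering genes, and clusters were named from standard markers. Of 43 clusters, 13 came to 90% or more from 1 library. The third treated library, IPI-926 replicate 3, lay apart from the other 5. From it came 3518 of 3524 and 2019 of 2019 cells of the clusters 3 and 7, fibroblast-like by their markers and led by Crabp1, 2774 of 2833 cells of the monocyte cluster 5 led by Ly6c2, 1810 of 1816 of the macrophage cluster 10 led by Ccl8, and 918 of 921 of the T cell cluster 20. Summed shares and medians over the members are therefore given with and without that library, and single fold changes are given without it where it moved them by more than 1.5 times. Each library is 1 tumour, so the p-values measure the spread between these 6 tumours.

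The interferon response genes took a larger part of the RNA in IPI-926 replicate 3 than in any vehicle library, in all 10 cell classes and in all cells together. In macrophages and monocytes the 29 members held 0.139%, 0.0843% and 0.512% of UMIs in IPI-926 replicates 1, 2 and 3, against 0.106%, 0.103% and 0.0959% in vehicle replicates 1, 2 and 3. In endothelial cells they held 0.0840%, 0.104% and 0.362% of UMIs in the IPI-926 libraries, against 0.0761%, 0.0879% and 0.0736% in the vehicle libraries. The vehicle libraries lay close together in both classes, IPI-926 replicate 3 stood 5.04-fold and 4.57-fold above their mean, and IPI-926 replicate 2 lay below every vehicle library in macrophages. Neutrophils gave 0.180%, 0.126% and 0.393% of UMIs after IPI-926, against 0.105%, 0.117% and 0.114% after vehicle, and here all 3 IPI-926 libraries lay above all 3 vehicle libraries.

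Ductal epithelial cells, which include the tumour cells, had the lowest share of the 10 classes in vehicle libraries. It was 0.0245%, 0.0219% and 0.0564% after IPI-926, against 0.0205%, 0.0203% and 0.0159% after vehicle, and the groups did not overlap. The IPI-926 libraries gave 71, 736 and 63 ductal cells, against 2284, 512 and 3123 in vehicle libraries. Replicates 1 and 2 lay only just above vehicle, and per ductal cell of equal depth, given below, the groups overlapped. Fibroblasts held 0.112%, 0.0931% and 0.293% after IPI-926, against 0.0982%, 0.0634% and 0.0313% after vehicle, with IPI-926 replicate 2 below vehicle replicate 1. T cells held 0.188%, 0.0713% and 0.249% after IPI-926, against 0.0917%, 0.126% and 0.108% after vehicle. In T cells replicates 1 and 3 of IPI-926 were high and replicate 2 was lower than every vehicle library, and in B cells too replicates 1 and 3 were high and replicate 2 was the lowest, with 0.241%, 0.0576% and 0.151% after IPI-926, against 0.0594%, 0.0722% and 0.0761% after vehicle.

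Dendritic cells held 0.121%, 0.102% and 0.304% after IPI-926, against 0.113% and 0.0963% in the 2 vehicle libraries with enough cells. Mesothelial cells, which line the organ surface, had the highest vehicle share of the 10 classes, with 0.310% and 0.525% in IPI-926 replicates 2 and 3, against 0.235%, 0.224% and 0.233% after vehicle. Perivascular cells held 0.0657%, 0.0455% and 0.124% after IPI-926, against 0.0456%, 0.0625% and 0.0268% after vehicle. All kept cells together held 0.0743%, 0.0518% and 0.331% after IPI-926, against 0.0586%, 0.0620% and 0.0298% after vehicle, a sum that also moves with which cells a tumour held.

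**Figure D1:**
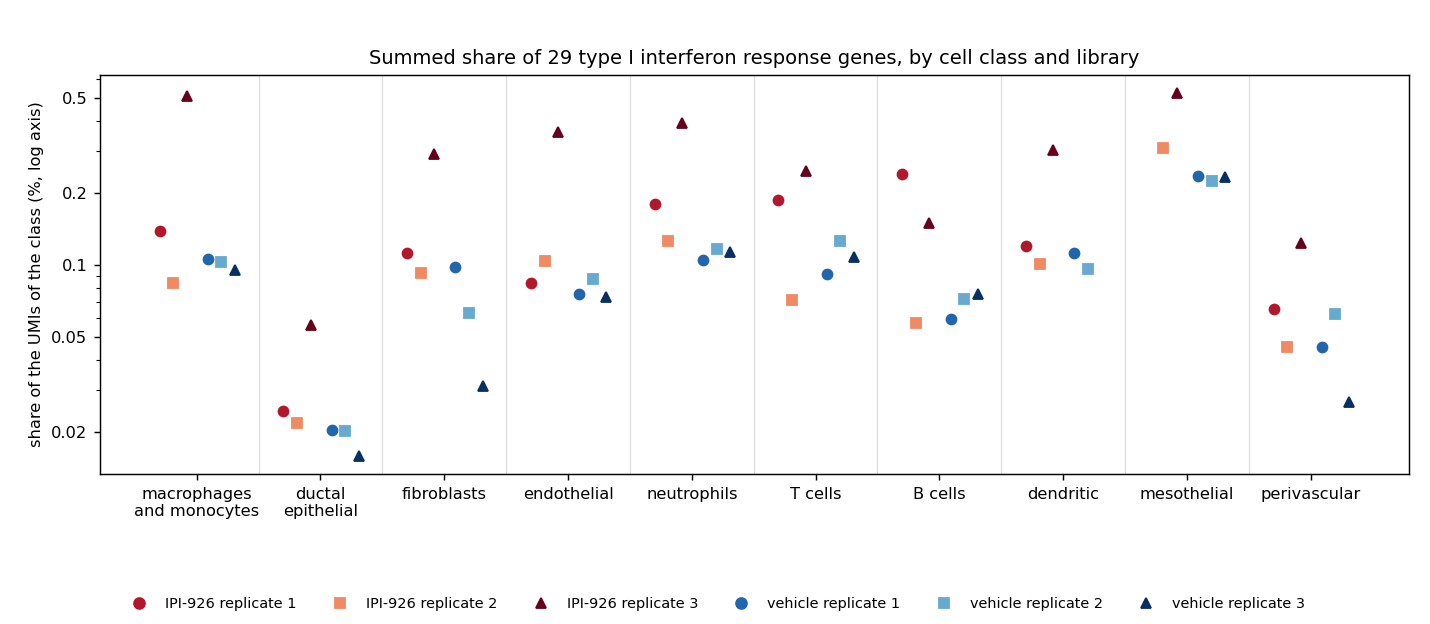
Share of all UMIs, in percent on a log axis, held by the 29 members in each cell class, with 1 point per library and IPI-926 left of vehicle. IPI-926 replicate 3 is the highest point of most classes, and the vehicle libraries of macrophages and monocytes lie together near 0.1%.

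The log2 ratio of the geometric mean shares, IPI-926 over vehicle, was 0.84 in macrophages and monocytes, 0.73 in ductal cells, 1.33 in fibroblasts, 0.89 in endothelial cells, 0.89 in neutrophils and 0.47 in T cells. Without IPI-926 replicate 3 these ratios were 0.09, 0.30, 0.82, 0.24, 0.43 and 0.10 in the same order of classes. All 6 stayed positive, and fibroblasts kept the largest ratio. A single gene weighs heavily in this sum. Ifi27l2a, a small hydrophobic protein of the ISG12 family, gave 32.3% to 34.2% of the members' UMIs in IPI-926 macrophages and 42.5% to 57.5% in vehicle macrophages. Without it the log2 ratio was 1.28 in macrophages and 0.93 in T cells. The members' share in IPI-926 replicate 2 was then 0.0571% in macrophages, against 0.0451% to 0.0595% in vehicle libraries, and 0.0423% in T cells, against 0.0402% to 0.0576%, so that it lay among the vehicle libraries in both and not below them.

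Cells of unequal depth were also compared after thinning each to 1000 UMIs. The share of macrophages with at least 1 UMI of any member was 56.5%, 48.2% and 93.8% in IPI-926 libraries, against 58.5%, 55.1% and 51.3% in vehicle libraries. In endothelial cells it was 50%, 47.2% and 91.7% after IPI-926, against 50.2%, 42.1% and 47.6% after vehicle. In neutrophils it was 56.7%, 53.8% and 91.6% after IPI-926, against 53.5%, 56.3% and 56.9% after vehicle, and in ductal cells 17.1%, 19% and 50%, against 20.4%, 19.5% and 15.5%. By this share IPI-926 replicate 3 alone stood apart in these 4 classes. Cells under 1000 UMIs were left out, which took 93 of the 188 neutrophils of replicate 3 and 275 of its 5124 macrophages. The mean number of member UMIs per thinned neutrophil was 1.68, 1.30 and 4.07 after IPI-926, against 1.10, 1.22 and 1.22 after vehicle, and 9.57%, 9.57% and 35.8% had a UMI of Isg15, against 6.65%, 4.79% and 5.31%. By both measures all 3 IPI-926 libraries lay above the vehicle libraries. In endothelial cells the mean was 0.894, 0.875 and 3.77 after IPI-926, against 0.786, 0.658 and 0.712 after vehicle, again with no overlap. Their share with a UMI of Isg15 did overlap, at 3.03%, 6.94% and 25.2%, against 0.369%, 2.26% and 3.32%. That share overlapped in ductal cells too, but not in macrophages. The mean in macrophages was 1.70, 0.919 and 5.30 after IPI-926, with replicate 2 below every vehicle library. In ductal cells the mean also overlapped, at 0.214, 0.236 and 0.786 after IPI-926, against 0.262, 0.244 and 0.170 after vehicle.

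Gene by gene, no member passed the test in any class. UMI counts were added up over the cells of a class in each library and tested over all genes with edgeR's quasi-likelihood test, with Benjamini-Hochberg adjustment and a threshold of 0.05, and 0 of the tested members had an adjusted p under it in each of the 10 classes and in all kept cells (percent of all genes called: higher 0, except 0.00934 in mesothelial cells; lower 0, except 0.0119 in neutrophils, 0.0139 in T cells and 0.0359 in B cells). The smallest adjusted p of a member was 0.1422, for Isg15 in mesothelial cells. Limma-voom also called 0 members, while DESeq2 called 3 in macrophages and monocytes, 4 in neutrophils, 2 in mesothelial cells and 2 in all kept cells. The percent of all genes that DESeq2 called is not given here, so its counts of members are not set against a background. All those named by DESeq2 were higher after IPI-926: Isg15, Irf7 and Bst2 in macrophages (DESeq2, adjusted p = 0.0484 for each), Rsad2 (adjusted p = 7.53e-06), Isg15 (0.00115), Ifit1 (0.0229) and Irf7 (0.0233) in neutrophils, Isg15 (0.000456) and Bst2 (0.0264) in mesothelial cells, and Oas3 (0.0296) and Ifit3 (0.0389) in all kept cells.

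At an unadjusted p under 0.05 the members higher after IPI-926 were 14 of 29 tested in macrophages and monocytes, where 1.03% of all tested genes were. They were 13 of 25 in neutrophils (background 2.6%), 11 of 28 in fibroblasts (1.85%), 5 of 15 in T cells (0.681%) and 4 of 29 in ductal cells (1.18%). They were 3 of 25 in endothelial cells (1.74%), 4 of 25 in dendritic cells (1.13%), 2 of 5 in B cells (1.08%), 5 of 28 in mesothelial cells (4.82%), 0 of 13 in perivascular cells (1.01%) and 9 of 29 in all kept cells (1.33%). Cmpk2 in mesothelial cells was the 1 member lower at this p, where 6.17% of genes were. The filter on low counts kept between 5 members in B cells and all 29 in macrophages and ductal cells, and since a gene can pass it through the group where it is high, these counts and the medians that follow describe the tested members and support nothing further.

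Groups that did not overlap, with every IPI-926 library above every vehicle library, were seen for 12 of 25 members in neutrophils (background 4.42%), 8 of 29 in macrophages and monocytes (2.98%), 3 of 28 in fibroblasts (4.36%) and 3 of 15 in T cells (3.17%). They were seen for 1 of 29 members in ductal cells (3.62%), 1 of 25 in endothelial cells (4.67%), 5 of 25 in dendritic cells (7.52%), 6 of 28 in mesothelial cells (13.7%), 0 of 5 in B cells (3.16%), 1 of 13 in perivascular cells (3.77%) and 4 of 29 in all kept cells (3.13%). The 1 member below every vehicle library was Cmpk2 in mesothelial cells, where 14.7% of genes were. The shares in ductal and endothelial cells are at the background of all genes. Over the classes Bst2 did not overlap in 7 of the 9 classes that tested it, Isg15 in 5 of 9, Irf7 in 4 of 8 and Zbp1 in 3 of 8, while Irf9, Ifih1, Ddx58, Oas1a, Eif2ak2, Ifit2, Xaf1 and Sp100 overlapped in every class that tested them. The classes of a library come from 1 tumour and are not independent of each other.

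The median log2 fold change of the tested members was 1.91 in macrophages and monocytes with 29 of 29 positive, 1.32 in neutrophils with 24 of 25, 1.27 in fibroblasts with 27 of 28, and 0.95 in ductal cells with 26 of 29. It was 0.88 in dendritic cells and 0.79 in endothelial cells with 25 of 25 positive in each, 0.79 in T cells with 15 of 15, 0.17 in mesothelial cells with 18 of 28 and 0.28 in perivascular cells with 9 of 13. The median of all genes tested lay within 0.04 of 0 in each of these classes, and the share of all genes with a positive log2 fold change was 51.8% in macrophages, 46.8% in neutrophils, 51.5% in fibroblasts, 48.8% in ductal cells, 50.5% in dendritic cells, 49.3% in endothelial cells, 53.2% in T cells, 48.4% in mesothelial cells and 49% in perivascular cells. B cells had 5 of 5 positive at a median of 0.92 (50.2% of all genes), and all kept cells 29 of 29 at 1.42 (54.2%). Without IPI-926 replicate 3 the members' median was 0.45 in macrophages, 0.08 in ductal cells, 0.57 in fibroblasts and -0.08 in endothelial cells. In neutrophils, T cells and B cells it was 1.01, 0.77 and 0.87 without that library. It was 0.17 in dendritic cells, -0.17 in mesothelial cells, 0.07 in perivascular cells and 0.45 in all kept cells. The count filter was applied anew without that library, so some of these medians are over other members than those above. They cover 26 members in fibroblasts, 24 in endothelial cells, 27 in neutrophils, 12 in T cells, 6 in B cells and 18 in dendritic cells. Without the clusters that came to 90% or more from 1 library, the median in macrophages was 0.76, and 7 members were at an unadjusted p under 0.05 in place of 14. Leaving out 1 library at a time gave 4 to 26 members at that p in macrophages and 10 to 19 in neutrophils. The share of all genes at that p in these reduced fits is not given here. These counts are therefore not set against a background.

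**Figure D2:**
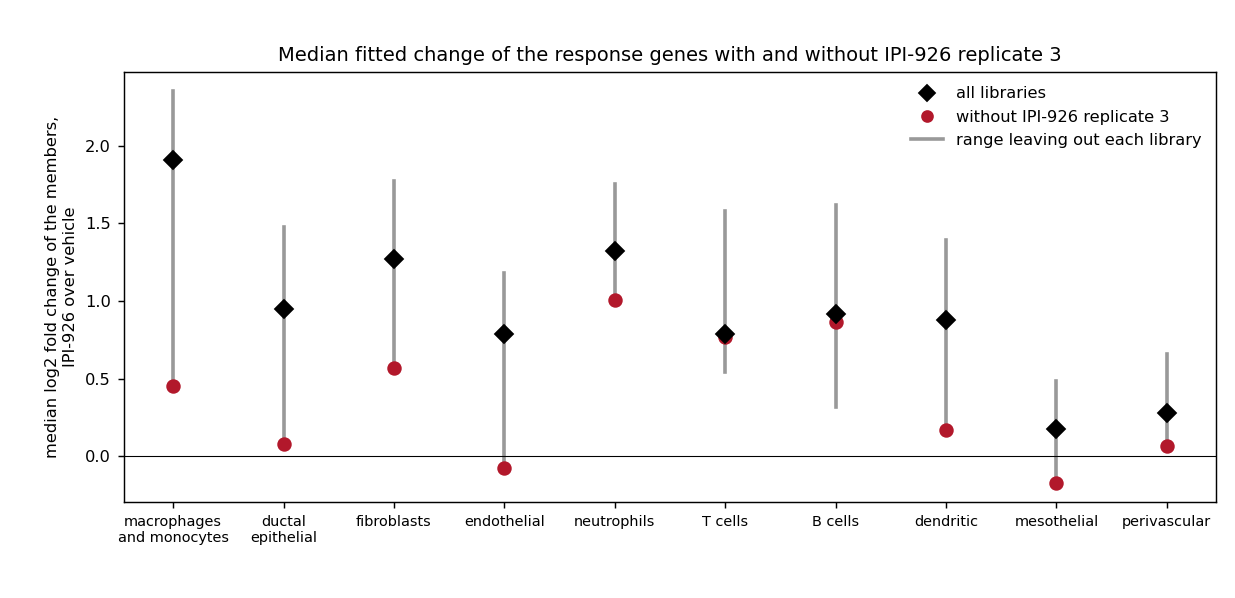
Median log2 fold change, IPI-926 over vehicle, of the tested members in each class. Diamonds use all libraries, circles leave out IPI-926 replicate 3, and grey bars give the range when each library is left out in turn. The members tested differ between these fits in some classes. Without that library the median falls to 0.08 in ductal cells and -0.08 in endothelial cells. It stays at 0.45 in macrophages and monocytes and 1.01 in neutrophils.

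Set against the vehicle libraries one at a time, the 3 treated tumours differed. In macrophages and monocytes IPI-926 replicate 3 lay above every vehicle library for 29 of 29 members (background 32.4%), replicate 1 for 23 (22.8%) and replicate 2 for 8 (20.8%). The median log2 ratio of the members to the vehicle mean, with a pseudocount of 1 CPM, was 0.78, 0.03 and 2.55 in replicates 1, 2 and 3. In neutrophils replicates 1, 2 and 3 lay above every vehicle library for 22 (27.5%), 14 (17.6%) and 22 (29%) of 25 members, with median ratios of 1.29, 0.52 and 1.38. T cells gave 13 (26.2%), 4 (18.1%) and 15 (25.8%) of 15 members, with median ratios of 1.40, -0.21 and 1.16.

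In endothelial cells 6 (23.3%), 5 (24.8%) and 24 (25.8%) of 25 members lay above every vehicle library, with median ratios of 0.07, -0.12 and 1.75. In ductal cells 8 (26.5%), 10 (29.9%) and 26 (26.6%) of 29 members did so, with median ratios of 0.07, -0.07 and 1.52. In fibroblasts the counts were 18 (20.9%), 5 (23.8%) and 26 (37.1%) of 28 members, with median ratios of 0.50, 0.02 and 1.97. Dendritic cells gave 14 (32.2%), 6 (30.8%) and 25 (36%) of 25 members, and B cells 5 (19.3%), 0 (22.6%) and 4 (22.3%) of 5. Mesothelial cells gave 6 (26.3%) and 17 (26.4%) of 28 members in replicates 2 and 3, perivascular cells 3 (22.9%), 2 (22%) and 8 (27.2%) of 13, and all kept cells 19 (27.9%), 6 (20.8%) and 29 (34%) of 29. In ductal and endothelial cells the shares of members above vehicle in replicates 1 and 2 lay near the background of all genes. The share in replicate 2 also lay near or below the background in fibroblasts, dendritic, mesothelial, perivascular and B cells and all kept cells. That share was a little above the background in macrophages and T cells, and well above it in neutrophils.

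**Figure D3:**
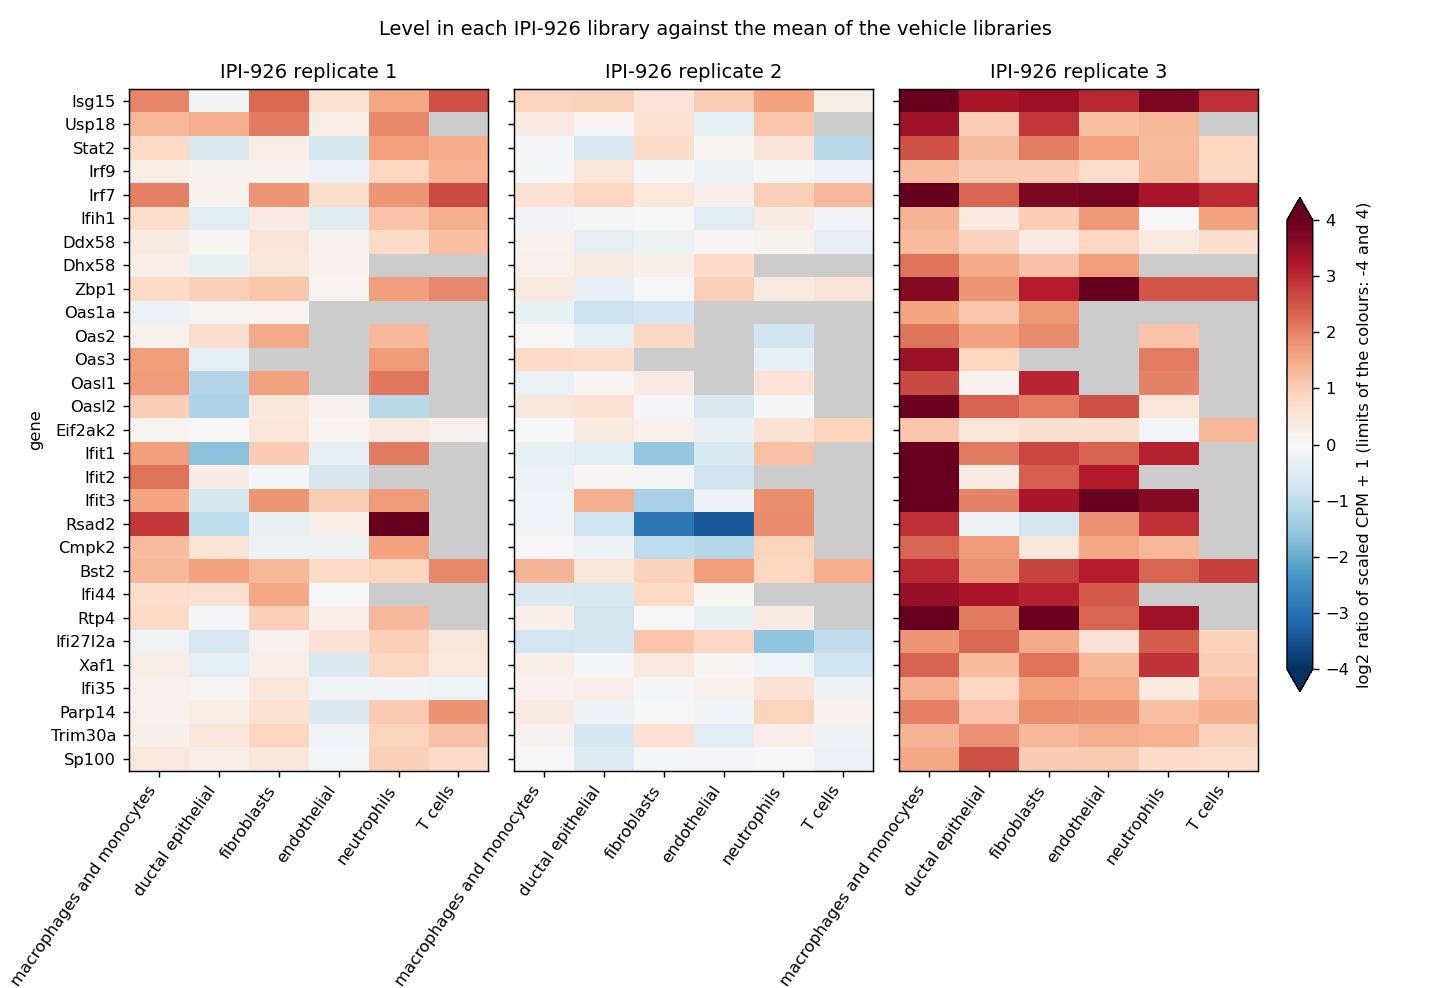
Log2 ratio of each member's scaled CPM in each IPI-926 library to the vehicle mean (pseudocount 1 CPM), in 6 cell classes. There is 1 row per member grouped by role and grey for members not tested in a class. Nearly all rows of IPI-926 replicate 3 are red in every class shown. Those of replicate 1 are red mainly in macrophages, fibroblasts, neutrophils and T cells, and most of replicate 2 are pale, with Rsad2 blue in fibroblasts and endothelial cells.

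Levels below are scaled CPM, the UMIs of a gene relative to the class sum after TMM scaling, in replicates 1, 2 and 3 of each group. The library kit reads the 3′ end of a transcript, so a UMI count does not grow with transcript length, and levels are compared between groups and not between genes. Where leaving out IPI-926 replicate 3 moved a log2 fold change by more than 1.5 times or turned its sign, the value without that library stands beside it. The factors of the pathway come first. Irf7 (ENSMUSG00000025498, GRCm38 chromosome 7 from 141262706 to 141266481), the interferon-induced factor that amplifies interferon production, was at 46.4, 16.6 and 301 scaled CPM in IPI-926 libraries, against 10.1, 10.3 and 11.6 in vehicle libraries of macrophages and monocytes (log2 fold change 3.51, SE 1.05, unadjusted p = 0.0137, 1.56 without replicate 3). Every IPI-926 library lay above every vehicle library and replicate 3 stood far above the other 2. Irf7 also did not overlap in T cells, at 36.7, 14.3 and 48.4 after IPI-926 and 7.51, 8.15 and 0 after vehicle (log2 fold change 2.30, SE 0.64, unadjusted p = 0.00261, with too few counts to test without replicate 3), or in neutrophils, at 63.1, 35.02 and 180.5 after IPI-926 and 21.3, 16.01 and 15.8 after vehicle (log2 fold change 2.22, SE 0.56, unadjusted p = 0.00295). The T cell levels rest on few UMIs, as the vehicle libraries had 94, 335 and 55 T cells. In cluster 6, which held nearly all of those cells, Irf7 had 2, 9 and 0 UMIs in vehicle libraries and 8 in IPI-926 replicate 2.

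In fibroblasts Irf7 was at 36.5, 13.7 and 144 after IPI-926 and 16.6, 8.57 and 4.84 after vehicle, and in ductal cells at 5.99, 10.4 and 30.4 after IPI-926 and 7.41, 5.03 and 3.42 after vehicle. In endothelial cells it was at 18.9, 13.1 and 173 after IPI-926 and 13.5, 9.89 and 10.2 after vehicle. In these 3 classes the groups overlapped, with replicate 2 of IPI-926 below vehicle replicate 1 in fibroblasts and endothelial cells and replicate 1 below it in ductal cells. In mesothelial cells it was at 121 and 165 after IPI-926 and 84.97, 44.5 and 47.05 after vehicle (log2 fold change 1.25, SE 0.33, unadjusted p = 0.00587), with no overlap.

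Stat2 and Irf9, the constitutive partners of the complex, differed less. Stat2 was at 24.4, 12.8 and 84.01 scaled CPM in IPI-926 libraries, against 11.9, 16.9 and 11.8 in vehicle libraries of macrophages and monocytes (log2 fold change 1.57, 0.45 without replicate 3). In fibroblasts it was at 17.7, 24.8 and 63.1 after IPI-926 and 16.2, 17.4 and 10.4 after vehicle, and in neutrophils at 34.6, 15.3 and 26.5 after IPI-926 and 9.13, 14.1 and 7.90 after vehicle. In both classes the groups were only just apart (log2 fold change 1.29 and 1.20, and 0.50 and 1.22 without replicate 3). Within fibroblast cluster 12 Stat2 overlapped, at 17.15 CPM in IPI-926 replicate 1 against 17.17 in vehicle replicate 2. Stat2 also overlapped in neutrophil clusters 2 and 4, at 10.51 and 17.25 CPM in IPI-926 replicate 2 against 16.3 and 18.09 in vehicle replicate 2. In ductal cells it was at 5.99, 5.79 and 23.2 after IPI-926 and 11.1, 7.42 and 9.53 after vehicle, in endothelial cells at 16.6, 28.7 and 83.3 after IPI-926 and 29.3, 22.8 and 26.8 after vehicle, and in T cells at 37.3, 5.38 and 23.5 after IPI-926 and 7.51, 13.9 and 16.6 after vehicle. Apart from replicate 3, the treated levels there lay among the vehicle levels or below them, except for a high T cell level in replicate 1. Without replicate 3 the sign of the Stat2 fold change turned in ductal and endothelial cells, to -0.68 and -0.22.

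Irf9 was at 28.6, 23.2 and 59.2 scaled CPM in IPI-926 libraries, against 22.6, 29.5 and 19.99 in vehicle libraries of macrophages and monocytes, and at 18.4, 15.4 and 33.8 after IPI-926 and 14.3, 18.9 and 16.1 after vehicle in fibroblasts. In ductal cells it was at 16.2, 20.7 and 30.4 after IPI-926 and 16.2, 12.5 and 15.3 after vehicle, and in endothelial cells at 27.5, 27.4 and 54.01 after IPI-926 and 32.1, 33.8 and 32.1 after vehicle. The highest value in each of these 4 classes was that of IPI-926 replicate 3, and the groups overlapped in all 4. In neutrophils it was at 61.1, 31.9 and 84.9 after IPI-926 and 44.1, 25.4 and 30.02 after vehicle and in T cells at 73.9, 23.3 and 49.4 after IPI-926 and 37.5, 27.7 and 16.6 after vehicle, with overlap too. Its log2 fold changes over the classes ran from -0.24 in perivascular cells to 0.80 in T cells, which were -0.71 and 0.83 without replicate 3.

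Isg15 (ENSMUSG00000035692, chromosome 4 from 156199424 to 156200818), the ubiquitin-like protein that is conjugated to others after interferon, was the member with most calls at the unadjusted p together with Bst2, in 8 of 9 tested classes. In macrophages and monocytes it was at 65.8, 31.2 and 442 scaled CPM in IPI-926 libraries, against 9.11, 17.6 and 22.5 in vehicle libraries (log2 fold change 3.45, SE 1.04, unadjusted p = 0.0144, 1.56 without replicate 3). All 3 IPI-926 libraries were above all 3 vehicle libraries, with replicate 2 the nearest. In neutrophils it was at 196, 201 and 897 after IPI-926 and 76.1, 51.6 and 68.7 after vehicle (log2 fold change 2.69, SE 0.61, unadjusted p = 0.00165, 1.64 without replicate 3), again with no overlap.

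In endothelial cells Isg15 was at 49.8, 65.9 and 267 after IPI-926 and 19.5, 46.1 and 31.8 after vehicle (log2 fold change 1.97, SE 0.74, unadjusted p = 0.0388, 0.81 without replicate 3), without overlap, although replicate 1 was only just above the highest vehicle library. In fibroblasts it was at 213, 61.6 and 468 after IPI-926 and 72.3, 38.8 and 17.3 after vehicle (log2 fold change 2.56, SE 0.83, unadjusted p = 0.0193), with replicate 2 below vehicle replicate 1. T cells were at 104, 19.7 and 131 after IPI-926 and 7.51, 8.96 and 33.1 after vehicle (log2 fold change 2.83, SE 0.77, unadjusted p = 0.00354), with replicate 2 below vehicle replicate 3. In ductal cells it was at 3.17, 7.52 and 42.7 after IPI-926 and 4.28, 2.77 and 3.52 after vehicle, where replicate 1 lay among the vehicle libraries.

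Mesothelial cells gave an even pair of treated libraries, with Isg15 at 202 and 204 after IPI-926 and 87.2, 85.8 and 101 after vehicle and no overlap (log2 fold change 1.15, SE 0.19, adjusted p = 0.1422 by edgeR's quasi-likelihood test). In dendritic cells it was at 99.6, 32.9 and 303 after IPI-926 and 13.8 and 22.7 after vehicle, with no overlap, and in perivascular cells at 72.4, 57.8 and 86.7 after IPI-926 and 44.3, 109 and 32.9 after vehicle, where vehicle replicate 2 was the highest of all. In B cells it did not pass the filter and had 92.3, 8.70 and 47.2 after IPI-926 and 8.49, 17.8 and 11.4 after vehicle. Usp18, which removes Isg15 from its targets and holds back the interferon receptor, was at 18.7, 5.99 and 32.2 scaled CPM in IPI-926 libraries, against 7.13, 2.37 and 1.61 in vehicle libraries of fibroblasts (log2 fold change 2.53, SE 0.77, unadjusted p = 0.0144), with replicate 2 below vehicle replicate 1. It did not overlap in neutrophils, at 16.8, 9.05 and 10.6 after IPI-926 and 4.57, 2.50 and 3.95 after vehicle (log2 fold change 1.94). The neutrophils of IPI-926 replicate 3 were 188 cells with 196328 UMIs over all genes, so its level rests on few UMIs.

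**Figure D4:**
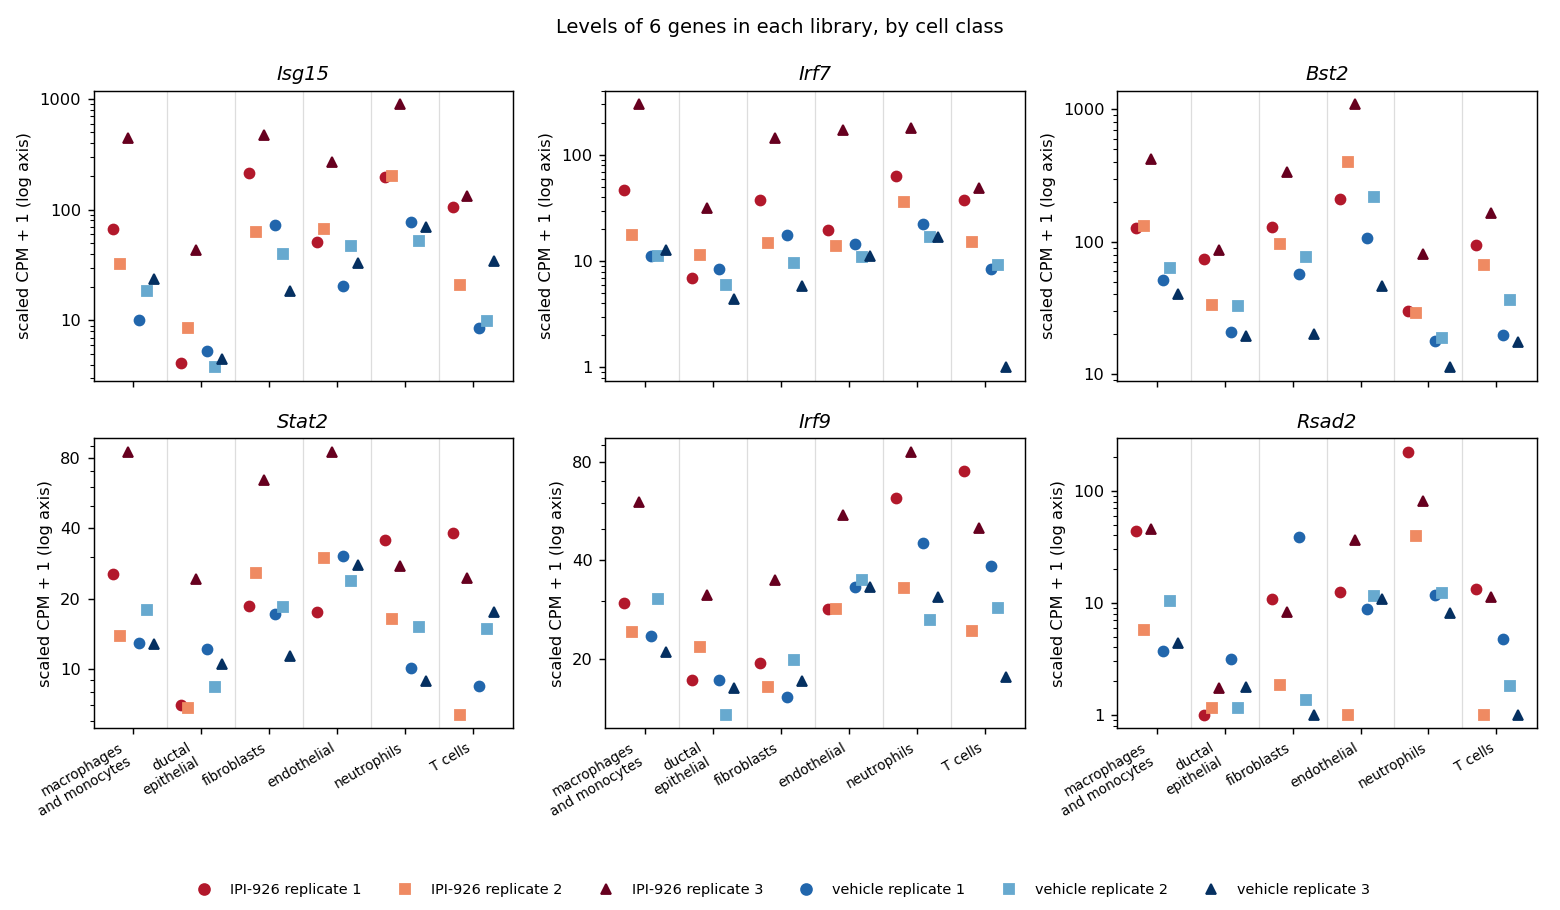
Scaled CPM plus 1 of Isg15, Irf7, Bst2, Stat2, Irf9 and Rsad2 on log axes in 6 classes, 1 point per library, IPI-926 left of vehicle. Bst2 separates the groups in 5 of these classes and Isg15 in 3, while Irf9 overlaps in all 6. Stat2 is only just apart in fibroblasts and neutrophils.

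Among the sensors of nucleic acid, Zbp1 had the widest differences between the groups. Zbp1, which recognises Z-form nucleic acid and can start cell death, was at 38.1, 28.3 and 286 scaled CPM in IPI-926 libraries, against 20.8, 26.3 and 18.1 in vehicle libraries of macrophages and monocytes (log2 fold change 2.43, SE 0.91, unadjusted p = 0.0342, 0.61 without replicate 3), with no overlap but with replicate 2 close to vehicle. In endothelial cells it was at 4.58, 9.13 and 207 after IPI-926 and 3.72, 5.77 and 3.18 after vehicle (log2 fold change 4.11, SE 1.62, unadjusted p = 0.0489, 0.66 without replicate 3), so that replicate 3 alone was far from the rest. In T cells it was at 72.1, 26.9 and 109.7 after IPI-926 and 15.01, 23.6 and 16.6 after vehicle (log2 fold change 1.84, SE 0.54, unadjusted p = 0.0038), and in fibroblasts at 48.5, 22.2 and 201 after IPI-926 and 20.9, 28.4 and 16.6 after vehicle. The T cell groups did not overlap, and the fibroblast groups did. In T cell cluster 6 the vehicle libraries had 4, 29 and 1 UMIs of Zbp1.

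In mesothelial cells Zbp1 was at 113 and 215 after IPI-926 and 69.4, 81.5 and 60.5 after vehicle (log2 fold change 1.23, SE 0.30, unadjusted p = 0.00439, 0.71 without replicate 3), with no overlap. Ifih1 and Ddx58, the RNA sensors known as MDA5 and RIG-I, had log2 fold changes of 0.80 and 0.68 in macrophages, 0.68 and 0.47 in neutrophils and -0.02 and 0.25 in ductal cells. Without replicate 3 they were 0.36 and 0.23 in macrophages and -0.24 and -0.18 in ductal cells. Their groups overlapped in each of the classes that tested them. Dhx58, the related regulator known as LGP2, was at 8.99, 8.79 and 38.8 after IPI-926 and 8.57, 7.91 and 6.84 after vehicle in macrophages, with no overlap, replicates 1 and 2 only just above vehicle and replicate 3 far above.

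Of the oligoadenylate synthetases, which make the messenger that activates RNase L, Oas3 stood next to Bst2 in p among the members in macrophages and monocytes. It was at 14.9, 7.27 and 52.9 scaled CPM in IPI-926 libraries, against 3.70, 4.49 and 3.69 in vehicle libraries there (log2 fold change 2.65, SE 0.72, unadjusted p = 0.00864, 1.47 without replicate 3), with no overlap. Oas2 was low in fibroblasts, at 4.67, 2.57 and 6.40 after IPI-926 and 1.43, 1.33 and 0.231 after vehicle, and did not overlap (log2 fold change 2.26, SE 0.69, unadjusted p = 0.0141). IPI-926 replicate 2 had 49 fibroblasts with 1162188 UMIs over all genes, so its Oas2 level rests on few UMIs. Oasl1, which in mice holds back the translation of Irf7, was at 7.92, 2.57 and 22.5 after IPI-926 and 2.85, 1.74 and 0.922 after vehicle in fibroblasts (log2 fold change 2.73, SE 0.82, unadjusted p = 0.013, 1.73 without replicate 3), with replicate 2 below vehicle replicate 1, and did not overlap in neutrophils at 86.5, 28.7 and 79.6 after IPI-926 and 19.8, 18.3 and 19.8 after vehicle (log2 fold change 1.71, SE 0.43, unadjusted p = 0.00226).

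Oasl1 ran differently in ductal cells, at 7.40, 18.9 and 20.3 after IPI-926 and 15.7, 31.7 and 6.87 after vehicle, where vehicle replicate 2 was the highest library. In dendritic cells it was at 19.2, 9.52 and 24.6 after IPI-926 and 11.5 and 3.65 after vehicle (log2 fold change 1.63, SE 0.65, unadjusted p = 0.0313). Oasl2 was among the most abundant members in neutrophils, at 110.5, 228 and 329 after IPI-926 and 145, 385 and 183 after vehicle (log2 fold change -0.14, -0.48 without replicate 3), with vehicle replicate 2 the highest of the 6, and in mesothelial cells at 94.6 and 164 after IPI-926 and 119, 119 and 92.8 after vehicle. Eif2ak2, the kinase PKR that stops translation on double-stranded RNA, was at 32.1, 40.6 and 44.1 after IPI-926 and 37.3, 28.2 and 29.3 after vehicle in ductal cells and 47.97, 38.5 and 53.8 after IPI-926 and 39.01, 36.8 and 26.7 after vehicle in fibroblasts. Its groups overlapped in both, and its log2 fold changes were 0.30 (0.20 without replicate 3) and 0.46. Oas1a, which has close copies in the mouse genome, passed the filter in 4 classes, with log2 fold changes from -0.10 in mesothelial cells (-0.43 without replicate 3) to 1.25 in fibroblasts.

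The Ifit proteins bind viral RNA ends. Ifit1 was at 47.6, 25.2 and 95.5 scaled CPM in IPI-926 libraries, against 15.2, 8.53 and 7.90 in vehicle libraries of neutrophils (log2 fold change 2.30, SE 0.51, unadjusted p = 0.000938), with every treated library above every vehicle library. In fibroblasts it was at 71.2, 11.1 and 225 after IPI-926 and 91.3, 7.70 and 5.30 after vehicle, and the groups overlapped, with replicate 2 low and vehicle replicate 1 high. Ifit3 had the largest log2 fold change of the members in macrophages and monocytes, 4.13, at 7.5, 1.62 and 86.8 after IPI-926 and 0.902, 1.56 and 3.15 after vehicle, with replicate 2 among the vehicle libraries, and its log2 fold change was 1.30 without replicate 3. Ifit2 followed there at 14.3, 1.87 and 68.6 after IPI-926 and 1.17, 3.38 and 2.61 after vehicle. Mouse Ifit3 has a near-identical neighbour, Ifit3b, and how reads shared between copies were counted is not given in the sources used here.

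Rsad2 (ENSMUSG00000020641, chromosome 12 from 26442746 to 26456452), also called viperin, had the smallest unadjusted p of any member in any class. In neutrophils it was at 224, 38.96 and 79.6 scaled CPM in IPI-926 libraries, against 10.7, 11.2 and 7.11 in vehicle libraries (log2 fold change 3.58, SE 0.65, unadjusted p = 0.000334; adjusted p = 0.538 by edgeR's quasi-likelihood test). Replicate 1 was highest here, not replicate 3, and without replicate 3 the log2 fold change was 3.77. Neutrophil cluster 25 held 23.3% of the neutrophils of IPI-926 replicate 1, against 0% to 12.2% in the other libraries. In that cluster Rsad2 was at 426 CPM in 580 cells of IPI-926 replicate 1 and 326 CPM in 44 cells of replicate 2. It was at 0 in 48 and 52 cells of vehicle replicates 1 and 2. The part of this cluster in the Rsad2 level was not tested. In macrophages Rsad2 was at 42.7, 4.75 and 45.2 after IPI-926 and 2.71, 9.35 and 3.37 after vehicle, with replicates 1 and 3 alike and replicate 2 below vehicle replicate 2.

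In fibroblasts Rsad2 was at 9.90, 0.856 and 7.26 after IPI-926 and 37.6, 0.347 and 0 after vehicle, with the highest value in vehicle replicate 1, and in ductal cells at 0, 0.142 and 0.724 after IPI-926 and 2.12, 0.141 and 0.763 after vehicle, with all 3 treated libraries below vehicle replicates 1 and 3. The ductal level of IPI-926 replicate 3 rests on few UMIs, as its 63 ductal cells had 1366112 UMIs over all genes. Cmpk2, a nucleotide kinase gene beside Rsad2, did not overlap in neutrophils either, at 13.03, 7.48 and 10.6 after IPI-926 and 3.04, 1.46 and 6.32 after vehicle (log2 fold change 1.72). The level in IPI-926 replicate 3 rests on few UMIs there, as for Usp18. In mesothelial cells Cmpk2 went the other way, at 1.46 and 2.89 after IPI-926 and 6.54, 6.35 and 7.62 after vehicle (log2 fold change -1.50, SE 0.49, unadjusted p = 0.0173), on 91 UMIs in all.

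Bst2 (ENSMUSG00000046718, chromosome 8 from 71534255 to 71537456), or tetherin, which holds budding viruses at the cell surface, had the widest separation of groups over classes. In macrophages and monocytes it was at 126, 131 and 420.5 scaled CPM in IPI-926 libraries, against 50.7, 62.5 and 39.4 in vehicle libraries (log2 fold change 2.15, SE 0.53, unadjusted p = 0.00508, 1.34 without replicate 3). In ductal cells it was at 72.6, 32.3 and 85.4 after IPI-926 and 19.9, 31.8 and 18.4 after vehicle (log2 fold change 1.42, SE 0.39, unadjusted p = 0.00757), and in T cells at 92.9, 66.3 and 163 after IPI-926 and 18.8, 35.05 and 16.6 after vehicle (log2 fold change 2.03, SE 0.48, unadjusted p = 0.000716). None of these 3 classes had an overlap, although replicate 2 was only just above vehicle replicate 2 in ductal cells. In T cell cluster 6 the vehicle libraries had 5, 43 and 2 UMIs of Bst2.

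In fibroblasts Bst2 was at 128, 95.8 and 335 after IPI-926 and 56.6, 75.8 and 19.1 after vehicle and in neutrophils at 28.8, 27.9 and 79.6 after IPI-926 and 16.8, 17.9 and 10.3 after vehicle, both without overlap. In dendritic cells it was at 114, 144 and 274 after IPI-926 and 64.6 and 73.3 after vehicle (log2 fold change 1.35, SE 0.40, unadjusted p = 0.00704, 0.89 without replicate 3), and in mesothelial cells at 875 and 1196 after IPI-926 and 224, 440.5 and 476 after vehicle (log2 fold change 1.45, SE 0.35, unadjusted p = 0.00383), again without overlap. The groups overlapped in endothelial cells, at 209.5, 397 and 1092 after IPI-926 and 106, 218 and 45.2 after vehicle (log2 fold change 2.19, SE 0.83, unadjusted p = 0.0401, 1.29 without replicate 3), where vehicle replicate 2 exceeded IPI-926 replicate 1, and in perivascular cells, at 82.6, 114 and 234 after IPI-926 and 73.3, 101 and 12.8 after vehicle. Without replicate 3 the log2 fold change of Bst2 was 1.14 in ductal cells, 1.16 in fibroblasts and 1.57 in T cells. In B cells it did not pass the filter and was at 93.1, 30.5 and 150 after IPI-926 and 0, 23.7 and 0 after vehicle.

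The remaining induced genes include the most abundant ones. Ifi27l2a was at 455, 298 and 1704 scaled CPM in IPI-926 libraries, against 607, 418 and 492 in vehicle libraries of macrophages and monocytes, at 218, 428 and 561 after IPI-926 and 316, 242 and 29.7 after vehicle in fibroblasts and at 820, 303 and 1112 after IPI-926 and 510.5, 623 and 646 after vehicle in T cells. In macrophages replicate 1 lay among the vehicle libraries and replicate 2 below them, and the groups overlapped in all 3 classes. In endothelial cells it was at 83.6, 99.2 and 82.5 after IPI-926 and 103, 52.2 and 11.3 after vehicle, and there replicate 3 was the lowest of the treated libraries. In mesothelial cells, at 1334 and 2516 after IPI-926 and 1043, 760.3 and 896 after vehicle, and only there among the tested classes, its groups did not overlap (log2 fold change 1.10, SE 0.30, unadjusted p = 0.00818, 0.59 without replicate 3).

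In B cells Ifi27l2a was at 755, 218 and 572 after IPI-926 and 208, 88.8 and 341 after vehicle (log2 fold change 1.34, SE 0.50, unadjusted p = 0.0154), and Trim30a, a mouse Trim protein induced by interferon, at 154, 34.8 and 91.7 after IPI-926 and 29.7, 59.2 and 34.1 after vehicle (log2 fold change 1.27, SE 0.51, unadjusted p = 0.0203). Replicates 1 and 3 were high in both and replicate 2 was not. Trim30a was among the most abundant members in neutrophils, at 374, 243 and 526 after IPI-926 and 224, 149 and 233 after vehicle (log2 fold change 0.90, SE 0.36, unadjusted p = 0.0311), without overlap but with replicate 2 only just above vehicle replicate 3. In macrophages it was at 81.6, 78.1 and 183 after IPI-926 and 68.4, 78.4 and 64.4 after vehicle, in endothelial cells at 55.5, 44.4 and 165 after IPI-926 and 44.2, 54.4 and 81.6 after vehicle and in T cells at 104, 39.4 and 86.96 after IPI-926 and 41.3, 45.6 and 49.7 after vehicle. The groups overlapped in those 3 classes.

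Parp14, an ADP-ribosyltransferase, was at 77.2, 68.9 and 84.9 after IPI-926 and 33.5, 44.3 and 31.6 after vehicle in neutrophils (log2 fold change 1.03, SE 0.29, unadjusted p = 0.00468), with no overlap, and at 108, 34.05 and 80.9 after IPI-926 and 22.5, 50.5 and 16.6 after vehicle in T cells. In endothelial cells it was at 44.1, 60.7 and 233 after IPI-926 and 64.7, 63.7 and 68.8 after vehicle, where replicate 3 alone was high. Rtp4, which restricts viral RNA replication, was at 12.7, 8.38 and 142 after IPI-926 and 6.22, 7.03 and 7.71 after vehicle in macrophages and 62.9, 31.5 and 271 after IPI-926 and 27.4, 8.11 and 39.5 after vehicle in neutrophils, and in dendritic cells at 13.2, 5.19 and 37.9 after IPI-926 and 4.62 and 0.81 after vehicle (log2 fold change 3.57, SE 1.18, unadjusted p = 0.0185, with too few counts to test without replicate 3). The macrophage and dendritic groups did not overlap. Ifi44 was at 39.5, 42.4 and 224 after IPI-926 and 29.3, 53.6 and 37.1 after vehicle in endothelial cells, Sp100, of the nuclear bodies, at 221, 109 and 209 after IPI-926 and 101, 151 and 133 after vehicle in T cells, and Ifi35 at 20.1, 22.6 and 34.02 after IPI-926 and 19.3, 15.6 and 21.1 after vehicle in ductal cells, all with overlap. Xaf1 had a positive log2 fold change in 9 of 9 classes that tested it, up to 1.49 in neutrophils (0.76 without replicate 3), and overlapped in each.

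Summed classes mix clusters that the libraries fill unequally, so Isg15 was also read within clusters that all 6 libraries share, in CPM of the cluster's sum. In macrophage cluster 1, led by Nrg1, Ccl24 and Ccr2, it was at 71.4, 47.3 and 85.5 CPM in IPI-926 libraries, against 17.7, 19.6 and 23.9 in vehicle libraries, with 40 cells from IPI-926 replicate 3. In endothelial cluster 15 it was at 46.8, 31.4 and 269 CPM after IPI-926, against 22.1, 32.2 and 33.0 after vehicle. In fibroblast cluster 12, which holds 42 cells of IPI-926 replicate 3, it was at 207, 62.0 and 306 CPM, against 73.6, 38.2 and 17.9. The Isg15 groups were apart in the macrophage cluster, while IPI-926 replicate 2 lay among the vehicle libraries in the other 2. The share of UMIs held by all members in macrophage cluster 1 did overlap, at 0.142%, 0.116% and 0.194% after IPI-926, against 0.149%, 0.108% and 0.0914% after vehicle. Irf7, Bst2 and Zbp1 were apart in macrophage cluster 1, as was Bst2 in fibroblast cluster 12. In T cell cluster 6 Irf7 and Bst2 were apart. Zbp1 overlapped there, at 25.7 CPM in IPI-926 replicate 2 against 26.24 in vehicle replicate 2.

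Neutrophils fell mainly into cluster 2, led by Mmp9 and Siglecf, and cluster 4, led by G0s2, Cxcr2 and S100a9. In cluster 2 Isg15 was at 82.1, 83.3 and 804 CPM after IPI-926, against 72.3, 40.2 and 57.5 after vehicle, and in cluster 4 at 197, 301 and 868 CPM, against 118, 128 and 126. The groups did not overlap for Isg15 in either cluster. In cluster 2, however, IPI-926 replicate 3 gave 17 Isg15 UMIs in 24 cells. Replicates 1 and 2 lay only just above vehicle replicate 1 there, which had 24 Isg15 UMIs. The share held by all members overlapped in cluster 2, at 0.1%, 0.0956% and 0.317% after IPI-926, against 0.0789%, 0.108% and 0.0918% after vehicle. Irf7, Bst2, Ifit1, Oasl1 and Rsad2, which did not overlap in neutrophils as a class, overlapped in cluster 2. All of these but Irf7 had 0 UMIs in the 24 cells of IPI-926 replicate 3. Ifit1 and Oasl1 overlapped in cluster 4 too, where Irf7, Bst2 and Rsad2 were apart. Cluster 4, the higher one, held 50.6%, 52.7% and 87.2% of the neutrophils of the IPI-926 libraries, against 30.1%, 28.4% and 23.6% of those of the vehicle libraries. Within cluster 4 Rsad2 was at 190.3, 44.7 and 85.6 CPM after IPI-926, against 29.4, 40.2 and 11.5 after vehicle, and the share of UMIs held by all members was 0.192%, 0.152% and 0.402%, against 0.179%, 0.149% and 0.194%. Their part in the neutrophil result was not tested beyond these values. The Ly6c2 monocytes of cluster 5 had Isg15 levels of 907 CPM in 24 cells of IPI-926 replicate 1 and 602 CPM in 2774 cells of replicate 3.

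**Figure D5:**
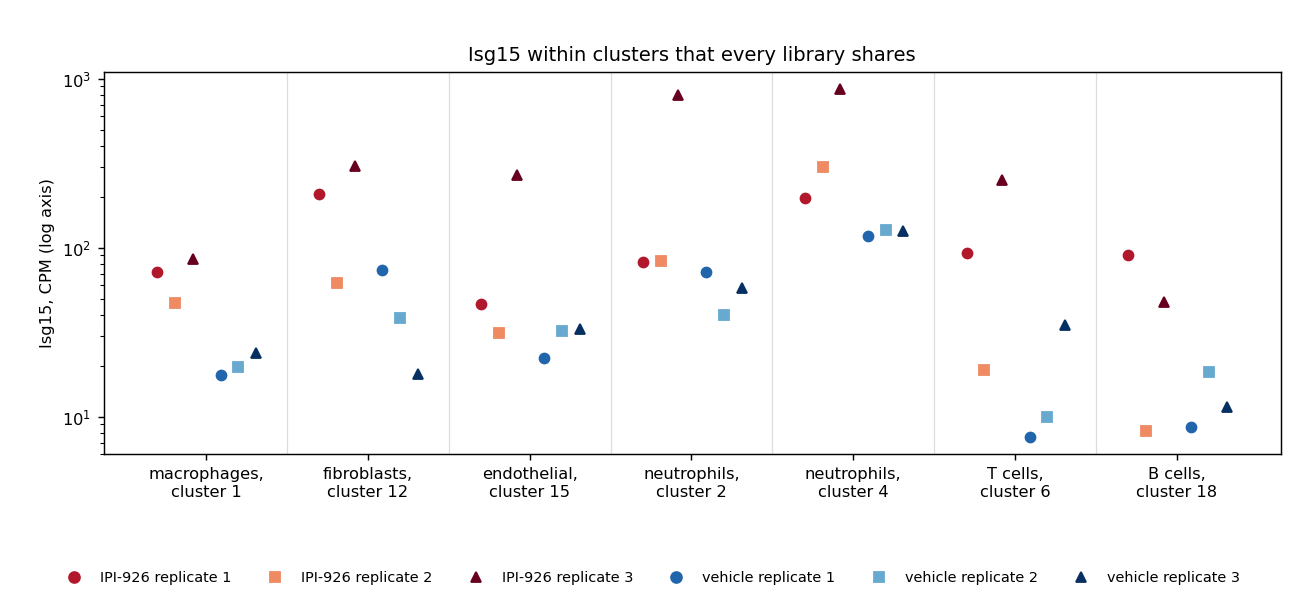
Isg15 in CPM on a log axis within clusters shared by the libraries, 1 point per library with at least 20 cells, IPI-926 left of vehicle. The Isg15 groups are apart in macrophage cluster 1 and in both neutrophil clusters, and IPI-926 replicate 3 is the highest point in most clusters. In neutrophil cluster 2 that library has 24 cells, and IPI-926 replicates 1 and 2 lie only just above vehicle replicate 1.

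Markers of other cell types moved with some of these values. In macrophages and monocytes the 13 fibroblast markers summed to 34.6 to 912 CPM in IPI-926 libraries, with the top in replicate 3, against 46.0 to 194 CPM in vehicle libraries. The 11 neutrophil markers summed to 210.0 to 1891 CPM, against 385 to 3625 CPM. In endothelial cells the 14 macrophage markers summed to 156 to 675 CPM after IPI-926, again highest in replicate 3, against 142 to 305 CPM after vehicle. In neutrophils the 13 fibroblast markers summed to 184 to 2058 CPM after IPI-926, against 95.1 to 667 CPM after vehicle. In fibroblasts the 11 neutrophil markers summed to 1697, 191 and 27.4 CPM after IPI-926, against 157 to 259 CPM after vehicle. In ductal cells the 14 macrophage markers summed to 130.4, 202 and 896 CPM after IPI-926, against 136 to 317 CPM after vehicle. Each library had UMIs of at least 10 of the 13 fibroblast, 10 of the 11 neutrophil and 11 of the 14 macrophage markers in the macrophages, endothelial cells and neutrophils above. The part of such RNA in the levels of the members was not tested beyond the values that follow. Free fibroblast RNA in replicate 3 was gauged with Crabp1, which its fibroblasts carried at 2362 CPM. If every Crabp1 UMI in another class were stray, the same RNA would carry 3.25% of the Isg15 of its macrophages, 2.35% of that of its endothelial cells, 5.07% of that of its neutrophils, 9.41% of that of its T cells and 29.8% of that of its B cells. In the same neutrophils it would carry 40.8% of Bst2, or 31.2 of 76.4 CPM, and 28.3% of Zbp1. With C1qb of macrophages as the tracer the share of Isg15 in the other classes was 0.832% to 15.6%. Each tracer follows the RNA of its own source class at that class's mean level, and the sources were not added up. These percentages therefore set no upper limit on the stray RNA of the members.

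Whether cell types differed in their response was tested with limma on the difference of log2 CPM between each of 5 classes and macrophages within a library. No gene and no member passed at an adjusted p of 0.05 in any of the 5 comparisons (limma, percent of genes called 0). At an unadjusted p under 0.05 were 3 of 29 members in ductal cells (324 of 12368 of all genes tested) and 0 of 28 in fibroblasts (299 of 11123). They were 9 of 25 in endothelial cells (311 of 9892), 1 of 25 in neutrophils (322 of 8337) and 0 of 15 in T cells (139 of 7068). Those at that p in endothelial cells included Rsad2, whose log2 fold change was 2.72 lower than in macrophages (difference -2.72, SE 0.64, unadjusted p = 0.00337, adjusted p = 0.9618 by limma), and Oasl2 (difference -1.20). In neutrophils it was Oasl2, with a difference of -2.03, and the share of members there lay near that of all genes. These 5 comparisons share the macrophage sums.

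The rest of the pathway was read from a list of receptors, kinases, factors, sensors and brakes, 51 genes of which had a row. None passed the edgeR test in any class at an adjusted p of 0.05, and at an unadjusted p under 0.05 0 of 30 tested were higher in macrophages (1.03% of all genes), 2 of 25 in neutrophils (2.6%), 3 of 28 in mesothelial cells (4.82%), 2 of 12 in B cells (1.08%) and 1 of 20 in perivascular cells (1.01%). In fibroblasts 1 of 28 was lower (2.05%), and the other classes had none. Irf1, a target of interferon gamma as well, was at 39.1, 32.2 and 256 after IPI-926 and 26.5, 53.7 and 27.7 after vehicle in macrophages, and Socs1, a brake on the kinases, at 8.31, 9.75 and 92.9 after IPI-926 and 5.59, 7.91 and 13.7 after vehicle. For both genes replicate 3 was high and the other treated libraries lay among the vehicle libraries.

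The receptor chain Ifnar2 was at 149, 122 and 122 after IPI-926 and 77.6, 89 and 89.3 after vehicle in neutrophils (log2 fold change 0.62, SE 0.27, unadjusted p = 0.0453), with no overlap, and at 141, 224 and 241 after IPI-926 and 187, 127 and 116 after vehicle in macrophages. Socs3, a brake on cytokine receptors, was lower in fibroblasts at 77.3, 93.3 and 32.04 after IPI-926 and 120.3, 147 and 152 after vehicle (log2 fold change -1.06, SE 0.40, unadjusted p = 0.0321). Over the list the median log2 fold change was 0.32 in macrophages, with 25 of 30 genes positive, 0.29 in neutrophils with 19 of 25, and between -0.01 and 0.09 in ductal cells, fibroblasts, endothelial cells and T cells.

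Transcripts of the interferons themselves were rare, with 1 exception. Ifnb1 had 8 UMIs in all kept cells, 5, 0 and 0 in the IPI-926 libraries and 0, 3 and 0 in the vehicle libraries, and 7 of the 8 lay in macrophages and monocytes. Ifnk had 16 UMIs, Ifne 17, of which 11 were in ductal cells, and Ifnl2 had 2. Of the Ifna genes, Ifna13 had 2 UMIs, and Ifna16, Ifna2 and Ifna7 had 1 each. Ifng, the type II interferon of T and NK cells, had 1687 UMIs, of which 15, 2 and 1634 were in the IPI-926 libraries and 4, 31 and 1 in the vehicle libraries, and 1475 of them lay in the T cells of IPI-926 replicate 3. The library with the highest levels of the members was thus also the one with nearly all Ifng UMIs, and the part of Ifng in the levels of the members was not tested.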

How the data were processed

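Tumours of 3 IPI-926 and 3 vehicle mice were dissociated and sequenced as 1 single-cell library each, and the groups come from the treatment labels. As deposited, each matrix gives the raw, unscaled count of UMIs for a gene in a barcode, made by the authors with cellranger 6.1.2 per the file headers. Cell Ranger 2.1.1 and the mm10 build stand in the submitters' processing notes. Gene positions are from GENCODE vM21 (GRCm38) and promoters from RefSeq (GRCm38.p6).

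Barcodes below 500 UMIs or 300 genes, or above 20% mitochondrial UMIs, were dropped, which left 54911 cells, of which 5114 likely doublets were then removed by a score from simulated doublets at 0.8% per 1000 barcodes. Cells were clustered with leidenalg 0.10.2 at resolution 1 in 30 components of 2000 variable genes, without integration and without the members, the pathway list and sex-linked genes. A cluster took a name from at least 3 detected markers that led it, 6973 cells stayed unnamed, and no cluster took the name of NK cells. Libraries with under 20 cells of a class were not used in it, which leaves vehicle replicate 3 out of dendritic and IPI-926 replicate 1 out of mesothelial cells.

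Counts summed per library and class were tested with edgeR 4.0.16 (TMM, filterByExpr, robust quasi-likelihood), adjusted by Benjamini-Hochberg over all genes of the class. All p-values of single genes in the text are from this fit across all genes unless another tool is named. DESeq2 1.42.0 and limma 3.58.1 (voom) were alternatives, and class differences used limma (trend, robust) with a prior count of 2. The edgeR step was tested on simulated counts. Each SE was taken from the fold change and its F statistic (fold change divided by the root of F).

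The text names all 31 members, with values in each library for the 6 most abundant and the 3 of smallest p in a class, and for Stat2, Irf7, Irf9 and Isg15. The members, the pathway list and the tests were chosen with earlier results of these data known. Single values of 1 gene of the pathway list are not reported here. UMI depth per library and class limits the precision of each value, and counting error adds to the spread between tumours.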

Additional observations from a re-analysis of the deposited data

How the results depend on the processing

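The 0 members called by edgeR's quasi-likelihood test stayed 0 under limma-voom, DESeq2's size factors, a stricter cell filter, kept doublets, resolution 2, clustering with the members, equal cells per library, and, added after seeing the data, without clusters of few UMIs. DESeq2 called 3 in macrophages and monocytes, 4 in neutrophils, 2 in mesothelial cells and 2 in all kept cells. With no low-count filter edgeR called 7 in neutrophils, 5 in T cells, 3 in B cells, 2 in dendritic cells and 3 in mesothelial cells. Leaving out 1 library gave 0 to 3 in T cells (3 without IPI-926 replicate 2: Isg15, Ifit3 and Ifit1) and 0 to 1 in B cells (Bst2 without IPI-926 replicate 2), and 0 in the other classes. The percent of all genes called in these other fits is not given here, so their counts of members are not set against a background. The cause was not tested.

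The log2 ratio of the summed share kept its sign when 1 library was left out, and in mesothelial cells ran from 0.42 to 1.19. Without IPI-926 replicate 3 it was 0.09 in macrophages, 0.10 in T cells and 0.09 in dendritic cells. Leaving out 1 library turned the sign of some fold changes: Stat2 ran from -0.68 to 0.57 in ductal cells, -0.22 to 1.12 in endothelial cells, -0.080 to 1.25 in dendritic cells, -0.95 to 0.86 in mesothelial cells and -0.12 to 1.70 in all kept cells. Irf9 ran from -0.25 to 0.33 in endothelial cells, -0.12 to 0.67 in dendritic cells, -0.89 to 0.17 in mesothelial cells and -0.71 to 0.21 in perivascular cells, and Isg15 from -0.13 to 0.87 in perivascular cells. Limma-voom gave Stat2 -0.52 in ductal cells. Of the other values of Isg15, Stat2, Irf7 and Irf9, 283 kept direction and side of the threshold and 6 passed it. Over all tested members and classes, 74 of 251 fold changes turned sign when 1 library was left out, 57 of them without IPI-926 replicate 3. Ifi27l2a ran from -0.43 to 1.09 in macrophages, Rsad2 from -1.48 to 4.76 in fibroblasts and Parp14 from -0.33 to 1.17 in endothelial cells. The class differences stayed at 0 members in all 35 fits.

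No paired analysis was possible because the replicate numbers follow the order of the samples and the labels pair no mice. The test in NK cells was not run. Classes of few cells gave no value with 50 cells per library, and no member of thinned perivascular cells passed the count filter of the test. Depth limits the single genes: the count filter kept 5 of 29 members in B cells, 13 in perivascular cells and 15 in T cells.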

Other observations

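Plasmacytoid dendritic cells, a cell type known as a source of type I interferon, formed 1 cluster of 149 cells, too few for a test. The members held 0.549% of UMIs in 23 cells of IPI-926 replicate 1 and 0.624% in 89 cells of replicate 3, against 0.291% in 22 cells of vehicle replicate 2. The other libraries had fewer than 20 such cells.

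The Ly6c2 monocytes of cluster 5 had a member share of 0.993% in 24 cells of IPI-926 replicate 1 and 0.657% in 2774 cells of replicate 3, and no other library gave 20 cells of this cluster. The Ccl8 and Cxcl9 macrophages of cluster 10, nearly all from IPI-926 replicate 3, had a share of 0.394%, and the T cells of cluster 20 had 0.206%.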
